A study of Mus musculus with 13 samples.

Results

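The proteasome genes examined here were the 48 gene symbols that begin with Psma, Psmb, Psmc, Psmd, Psme, Psmf or Psmg and end in a number, out of 32544 symbols in the count table. They encode the subunits of the 20S core (16 genes), the immunoproteasome (5 genes), the 19S cap (20 genes), other activators and an inhibitor (3 genes) and the chaperones that assemble the core (4 genes). RNA was measured by Quant-seq, which counts 3′ ends of polyadenylated transcripts, in perfused whole lung of wild-type (WT) C57BL/6J male mice bought at 7 weeks of age. The groups were 7 Normoxia libraries (21% oxygen) and 6 Hyperoxia libraries (80% oxygen), each after 5 days, and no mouse carried a transgene or received a drug. The labels give 1 library for each numbered sample without naming the mouse, so the p-values measure the spread between these samples. Of the 48 genes, 47 had enough reads to be tested among 12496 genes in all, and the one left out was Psma8, the testis form of an α subunit, with 0 to 5 counts in a library and 20 counts in total over 13 libraries.

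The proteasome is the protease of the cytosol and nucleus that degrades proteins tagged with ubiquitin. Its barrel, the 20S core, is built of α rings that gate the entrance and β rings that hold the catalytic sites, and the 19S cap recognizes, unfolds and feeds in the substrate with a ring of ATPases. In leukocytes, and in other cells under interferon-γ, inducible forms take the place of the catalytic β subunits, which gives the immunoproteasome, and the activators PA28 and PA200 can open the core in place of the cap. In most cells a shortage of proteasome activity raises the genes of the core and cap together through the transcription factor NFE2L1, whereas the inducible subunits follow interferon signaling.

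The sequences upstream of 6 of the genes are shown: 2 constitutive catalytic subunits, their inducible forms, an ATPase of the cap and a nuclear activator. They were read from RefSeq (GRCm38.p6), 5′ to 3′ on the strand of the gene. Capitals mark matches to a motif searched on both strands of the 250 bases before the start. Psmb5, the chymotrypsin-like subunit (chr14:54618023-54618245, minus strand), Psmb6, the caspase-like subunit (chr11:70525107-70525356, plus strand), and Psmc6, an ATPase of the cap (chr14:45329574-45329787, plus strand), each held the antioxidant response element core TGACNNNGC, to which NFE2 family factors bind. In Psmc6 the match lay on the minus strand of the gene, so its capitals show the reverse complement. Psme3, which encodes the nuclear activator PA28γ (chr11:101315963-101316212, plus strand), held a CCAAT box on its minus strand. These 4 stretches stop at the RefSeq start or, where that comes first, at an exon of a GENCODE transcript.
Psmb5: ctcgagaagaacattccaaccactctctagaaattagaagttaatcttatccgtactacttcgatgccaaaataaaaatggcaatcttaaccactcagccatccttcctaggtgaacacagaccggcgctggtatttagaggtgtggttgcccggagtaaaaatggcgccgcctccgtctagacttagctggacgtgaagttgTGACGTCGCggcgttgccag
Psmb6: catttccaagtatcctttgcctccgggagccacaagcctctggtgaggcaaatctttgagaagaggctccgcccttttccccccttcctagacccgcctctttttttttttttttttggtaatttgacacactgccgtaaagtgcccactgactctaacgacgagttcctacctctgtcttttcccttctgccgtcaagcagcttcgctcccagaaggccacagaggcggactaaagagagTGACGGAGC
Psmc6: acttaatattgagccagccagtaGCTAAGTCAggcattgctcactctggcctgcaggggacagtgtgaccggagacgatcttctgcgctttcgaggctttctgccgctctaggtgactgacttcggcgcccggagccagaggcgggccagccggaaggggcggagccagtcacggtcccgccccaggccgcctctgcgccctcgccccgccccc
Psme3: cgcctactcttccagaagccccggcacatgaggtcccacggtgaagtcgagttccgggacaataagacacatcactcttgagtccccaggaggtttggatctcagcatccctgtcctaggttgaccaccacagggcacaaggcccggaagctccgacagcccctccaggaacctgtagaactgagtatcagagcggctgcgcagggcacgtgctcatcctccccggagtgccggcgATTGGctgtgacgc
For the inducible subunits Psmb8 (chr17:34198088-34198116, plus strand) and Psmb9 (chr17:34187331-34187348, minus strand) the searched window lies inside exons of longer GENCODE transcripts, so only the match and its flanks are shown. Psmb8 held a STAT site of the form TTCNNNGAA, and Psmb9 a CCAAT box on its minus strand.
Psmb8: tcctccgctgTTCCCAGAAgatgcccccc
Psmb9: gcagccgctgATTGGaaa

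RefSeq gave 43 such windows for 40 of the 48 genes. The antioxidant response element core was in 11.6% of them (Psmb5, Psmb6, Psmc6, Psmd9 and Psmd12) and in 10.2% of all 32851 windows of the same length. The CCAAT box was in 32.6% of the proteasome windows and 33.8% of all windows, and the interferon regulatory factor core GAAANNGAA was in 6.98% and 7.13%. The STAT site was in 4.65% of the proteasome windows (Psmb8 and Psmg1) and 7.02% of all windows. The ETS core CGGAAGT was in 23.3% of the proteasome windows (Psma4, Psmc1, Psmc2, Psmd6, Psmd8, Psmd12, Psmd13, Psmd14 and Psme4) and in 4.92% of all windows. None of these motifs overlapped another in the 6 sequences shown, and a match gives only the letters of the window.

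The total count was between 1607111 and 3387736 in the normoxic libraries and between 2029006 and 4540288 in the hyperoxic ones, and 3 counts correspond to 0.652 to 1.83 CPM, counts scaled to a common library size. Hyperoxia replicate 1 stood apart. On log2 CPM it correlated with the rest at 0.721 to 0.833, against 0.854 to 0.967 among the other 12 libraries, and 1511 of the tested genes had at most 3 counts in it, against 36 to 317 elsewhere. Of the 47 proteasome genes, 19 were lower in this library than in every other library and 13 were higher, where 31.8% and 21.1% of all tested genes did so. Psma5, Psmb2, Psmb8, Psmd3, Psmg1, Psmg2 and Psmg3 had at most 3 counts in it, although their median counts in the other libraries were between 15 and 136. In the same library Psmb6, Psmb1, Psmc1 and Psmc3 were at 540, 661, 448 and 280 CPM, above their highest values elsewhere of 226, 364, 248 and 159 CPM. Results that turn on this library are given with and without it. The library names run from letter B to M (5 normoxic, 3 hyperoxic) and from O to S (2 normoxic, 3 hyperoxic), and what the letters stand for is not stated in the sources used here. The values of some genes are also given within each set of letters. Hyperoxia replicate 1 belongs to letters B to M, so the values within that set include it.

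**Figure D1:**
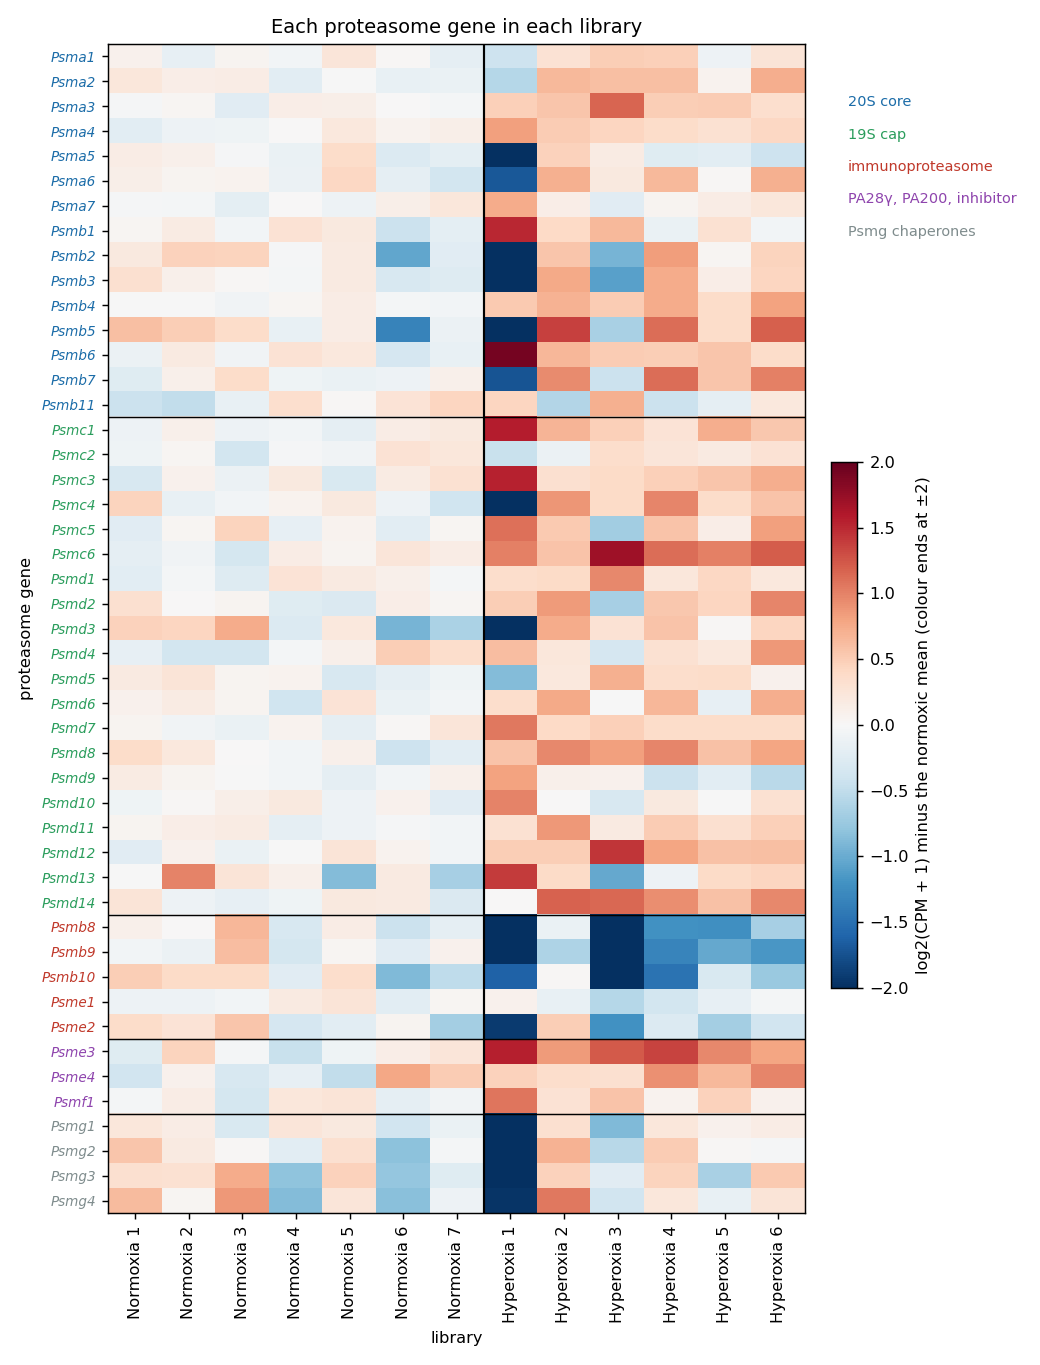
Each row is 1 of the 47 tested proteasome genes and each column 1 library, with 7 normoxic libraries to the left of the vertical line and 6 hyperoxic to the right, and the color gives log2(CPM + 1) minus the mean of the normoxic libraries. The rows of the core and cap are mostly red in hyperoxia and those of Psmb8, Psmb9 and Psmb10 blue, and the column of hyperoxia replicate 1 holds both the darkest blue and the darkest red cells.

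The question put to these genes was whether the parts of the proteasome moved together in hyperoxic lung. Of the 47 tested genes, 14 rose and 1 fell (edgeR's quasi-likelihood test, called below 0.05 after adjustment over all 12496 genes), where 11.8% of all genes rose and 10.8% fell. The 14 that rose belonged to the 20S core (4 genes), the 19S cap (9 genes) and the activators (Psme3), and the one that fell was Psmb9 of the immunoproteasome. The median log2 fold change was 0.40 in the core, 0.45 in the cap and -0.97 in the immunoproteasome, against -0.03 over all tested genes. Without hyperoxia replicate 1, 19 of the genes rose and 2 fell, where 14.8% and 13.9% of all genes did, and all 15 genes called with this library were called in the same direction without it. In 12 of the 47 genes, all among the 14 that rose, every hyperoxic library was above every normoxic library, against 5.60% of all tested genes. In 1 of the 47, Psmb9, every hyperoxic library was below, against 5.23%. The exceptions among those that rose were Psmd1 and Psmd14.

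**Figure D2:**
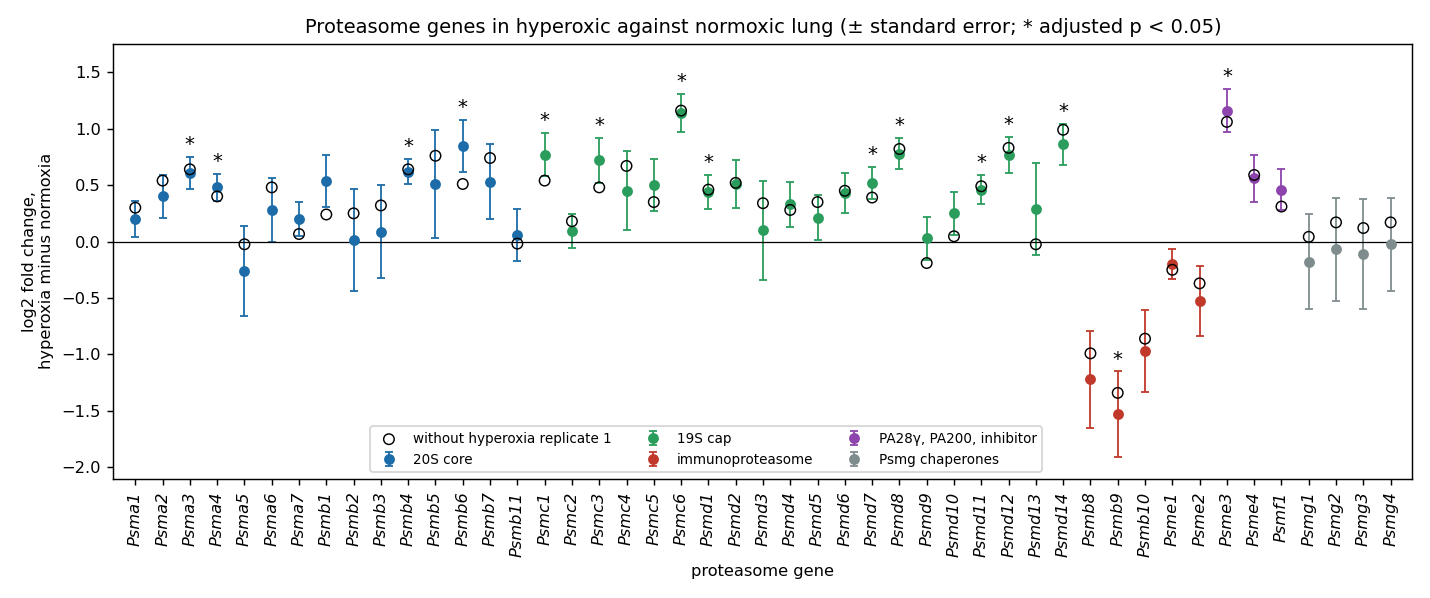
Filled points are log2 fold changes of each tested proteasome gene in hyperoxic against normoxic lung with the standard error (7 and 6 libraries), colored by part of the complex, and open circles are the same values without hyperoxia replicate 1. The genes of the 19S cap lie between 0.028 and 1.14, whereas the 5 genes of the immunoproteasome lie between -1.53 and -0.20.

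The summed level of the 20S core was between 1681 and 2003 CPM in the 7 normoxic libraries and between 2235 and 2836 CPM in the 6 hyperoxic libraries, with means of 1843 ± 109 and 2573 ± 207 CPM (SD). The summed level of the 19S cap was between 1423 and 1544 CPM in normoxia and between 2009 and 2425 CPM in hyperoxia, with means of 1493 ± 43.4 and 2200 ± 146 CPM. Neither sum overlapped between the groups, also when hyperoxia replicate 1, the highest for both, was left out. The summed immunoproteasome was between 255 and 380 CPM in normoxia and between 133 and 288 CPM in hyperoxia, with means of 309 ± 41.6 and 205 ± 53.9 CPM, and the groups overlapped. In RNA from a whole tissue, fewer cells of a type and less RNA per cell cannot be told apart.

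**Figure D3:**
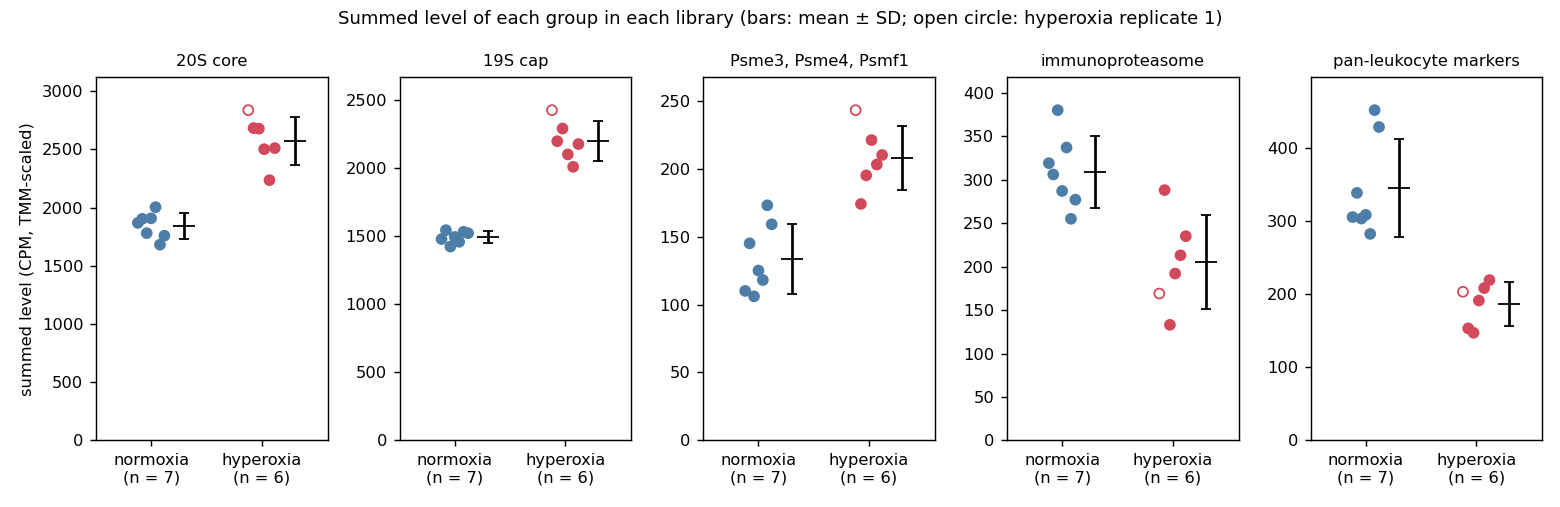
Each point is the summed TMM-scaled CPM of a group of genes in 1 library (7 normoxic, 6 hyperoxic), the bars are the mean ± SD, every axis starts at 0, and the open circle is hyperoxia replicate 1. The hyperoxic libraries lie above every normoxic library for the 20S core (2235 to 2836 CPM) and the 19S cap (2009 to 2425 CPM), overlap them for the immunoproteasome, and lie below them for the pan-leukocyte markers.

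In the 20S core, 14 of the 15 tested genes had a log2 fold change above 0 and 4 rose. Without hyperoxia replicate 1 the number above 0 was 13 and the number that rose was 7. Psmb4, a β subunit without a catalytic site, was at 242 to 282 CPM in normoxia (median 251) and at 328 to 445 CPM in hyperoxia (median 388). Every hyperoxic library was above every normoxic one, and the log2 fold change was 0.62 ± 0.11 (adjusted p = 0.00112), or 0.64 without hyperoxia replicate 1. Psma3, a subunit of the α ring, was at 270 to 345 CPM in normoxia (median 319) and at 397 to 711 CPM in hyperoxia (median 446), without overlap. Its log2 fold change was 0.61 ± 0.14 (adjusted p = 0.00605), or 0.64 without replicate 1, and the highest hyperoxic value was that of replicate 3. Psma4, also of the α ring, was at 109 to 146 CPM (median 126) and at 156 to 223 CPM (median 168), and again the groups were separate. The change was 0.48 ± 0.12 on the log2 scale (adjusted p = 0.0106), 0.40 without replicate 1, 0.69 within letters B to M and 0.26 within letters O to S.

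The other genes of the α ring did not pass the test with all libraries. Psma2 (log2 fold change 0.40, adjusted p = 0.135) and Psma6 (0.28, adjusted p = 0.514) had their lowest values in hyperoxia replicate 1, at 159 and 15.5 CPM. Both rose without it, by 0.54 and 0.48 on the log2 scale (adjusted p = 0.00537 and 0.0329). Psma6 was at -0.023 within letters B to M and rose by 0.76 within letters O to S (adjusted p = 0.0422). Psma1 (0.20) and Psma7 (0.20) were above 0 with all libraries, and at 0.30 and 0.067 without hyperoxia replicate 1. Psma5 was at -0.26 with that library and at -0.024 without. Among the noncatalytic β subunits, Psmb1 was at 0.54 (adjusted p = 0.113) and at 0.24 without replicate 1, and it passed at 0.63 with the letter set as a term (adjusted p = 0.0207). Psmb2 and Psmb3 were at 0.016 and 0.088, within letters B to M at -0.77 and -0.49, and within letters O to S at 1.10 and 0.75 (adjusted p = 0.0514 and 0.0351). Psmb11, the thymus form of the chymotrypsin-like subunit, whose gene lies 3410 bases from Psmb5 on chromosome 14, was at 27.6 to 53.2 CPM in normoxia and 25.7 to 64.6 CPM in hyperoxia. Its log2 fold change was 0.057, and no library was without reads for it.

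The 3 constitutive catalytic subunits were not alike in their precision. Psmb6, the caspase-like subunit, was at 113 to 174 CPM in normoxia (median 136) and at 184 to 540 CPM in hyperoxia (median 207), without overlap. It rose by 0.85 ± 0.23 on the log2 scale (adjusted p = 0.0156), and by 0.51 ± 0.12 (adjusted p = 0.00569) without hyperoxia replicate 1, which held the highest value. Psmb5, the chymotrypsin-like subunit, was at 16.2 to 64.6 CPM in normoxia (median 47.2) and at 3.75 to 111 CPM in hyperoxia (median 74.1). The lowest value was that of hyperoxia replicate 1 and the groups overlapped, with a log2 fold change of 0.51 ± 0.48 (adjusted p = 0.484), and of 0.76 ± 0.32 (adjusted p = 0.0907) without it. Within letters B to M, a set that includes hyperoxia replicate 1, Psmb5 was at -0.11 (adjusted p = 0.933). Within letters O to S it rose by 1.57 (adjusted p = 0.0184). Psmb7, the trypsin-like subunit, was at 24.3 to 37.6 CPM in normoxia (median 27.2) and at 8.04 to 64.1 CPM in hyperoxia (median 49.9), again with replicate 1 lowest. The log2 fold change was 0.53 ± 0.33 (adjusted p = 0.277), and Psmb7 rose by 0.74 ± 0.22 (adjusted p = 0.0168) without that library. Its values were 0.022 within letters B to M (adjusted p = 0.983) and 0.92 within letters O to S (adjusted p = 0.0174).

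All 20 genes of the 19S cap had a log2 fold change above 0, and 9 rose, with no gene lower. Without hyperoxia replicate 1 the number above 0 was 18, since Psmd9 and Psmd13 turned to -0.19 and -0.024, and the number that rose was 10. The median was 0.48 within each set of letters. Psmc6, an ATPase of the ring, was at 66.1 to 100 CPM in normoxia (median 87.6) and at 126 to 276 CPM in hyperoxia (median 177). No hyperoxic library was within the normoxic range, and it rose by 1.14 ± 0.17 on the log2 scale (adjusted p = 1.9e-04), or by 1.16 without hyperoxia replicate 1. Psmd8, a lid subunit, was at 70.2 to 121 CPM in normoxia (median 93.9) and at 139 to 185 CPM in hyperoxia (median 164), with no overlap and a log2 fold change of 0.78 ± 0.14 (adjusted p = 0.00102), or 0.82 without that library. Psmd12, also of the lid, was at 65.0 to 90.7 CPM (median 75.7) and at 107 to 206 CPM (median 115), with hyperoxia replicate 3 highest. The groups were separate, and it rose by 0.77 ± 0.16 (adjusted p = 0.00290), or by 0.83 without replicate 1.

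Of the 6 ATPases, Psmc1 (log2 fold change 0.77, adjusted p = 0.00722) and Psmc3 (0.72, adjusted p = 0.0156) rose as well. They were at 1.14 and 1.03 within letters B to M, and both at 0.34 within letters O to S. Without hyperoxia replicate 1 they rose by 0.54 and 0.48. Psmc4 was at 0.45 with that library, where it had 2.14 CPM, and rose by 0.67 (adjusted p = 0.0120) without it, and it was at 0.11 within letters B to M and at 0.93 within letters O to S (adjusted p = 0.0410). Psmc5 was at 0.50 (adjusted p = 0.138), at 0.66 without hyperoxia replicate 3 (adjusted p = 0.0171), and Psmc2 at 0.094 (adjusted p = 0.708). Of the 14 non-ATPases, 6 rose. Psmd14, the deubiquitinase that removes ubiquitin chains as the substrate enters, was at 31.5 to 46.7 CPM in normoxia and at 39.1 to 89.2 CPM in hyperoxia. It rose by 0.86 ± 0.18 (adjusted p = 0.00303), and the only hyperoxic value within the normoxic range was that of replicate 1. Its structural partner Psmd7 rose by 0.52 (adjusted p = 0.0139), the lid subunit Psmd11 by 0.46 (adjusted p = 0.0191), and the scaffold of the base Psmd1 by 0.44 (adjusted p = 0.0441). The call of Psmd1 was lost when any of normoxia replicates 1, 2, 3, 6 and 7 or hyperoxia replicates 2, 3 and 5 was left out, and no other called proteasome gene was lost when 1 library was left out.

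The remaining non-ATPases did not pass the test. Psmd2, the other scaffold of the base, was at 0.51 (adjusted p = 0.0903), the lid subunit Psmd6 at 0.43 (adjusted p = 0.0930), the ubiquitin receptor Psmd4 at 0.33, and the lid subunits Psmd13 and Psmd3 at 0.29 and 0.10, the last at 0.34 without hyperoxia replicate 1. Psmd3 was at -0.31 within letters B to M and at 1.18 within letters O to S (adjusted p = 0.0144). Psmd2 and Psmd6 passed without hyperoxia replicate 3, at 0.67 and 0.51 (adjusted p = 0.00449 and 0.0474), and Psmd6 also without replicate 5, at 0.53 (adjusted p = 0.0402). Psmd5, Psmd9 and Psmd10 are chaperones that help to build the base and leave the finished cap. Their log2 fold changes were 0.21, 0.028 and 0.25, and without hyperoxia replicate 1 they were 0.35, -0.19 and 0.047.

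In the immunoproteasome all 5 genes had a log2 fold change below 0, with and without hyperoxia replicate 1, and 1 fell with all libraries and 2 without it. Psmb9, the inducible form of the caspase-like subunit, was at 31.6 to 62.8 CPM in normoxia (median 39.2) and at 2.68 to 26.1 CPM in hyperoxia (median 16.6). Every hyperoxic library was below every normoxic one, the lowest being replicates 1 and 3 at 2.68 and 3.47 CPM. It fell by 1.53 ± 0.38 on the log2 scale (adjusted p = 0.00934), and by 1.34 ± 0.31 (adjusted p = 0.00397) without replicate 1. Within letters B to M its value was -1.91 (adjusted p = 0.0852) and within letters O to S -1.16 (adjusted p = 0.00766). Psmb8, the inducible chymotrypsin-like subunit, was at 39.6 to 85.4 CPM in normoxia (median 54.2) and at 1.07 to 48.7 CPM in hyperoxia (median 22.6). Only hyperoxia replicate 2, at 48.7 CPM, was within the normoxic range. The log2 fold change was -1.22 ± 0.43 (adjusted p = 0.0513), which missed the threshold, and without hyperoxia replicate 1 Psmb8 fell by 0.99 ± 0.27 (adjusted p = 0.0122). It was at -1.47 within letters B to M (adjusted p = 0.209) and at -0.74 within letters O to S (adjusted p = 0.0476), and DESeq2 called it at -1.23 (adjusted p = 0.0210). Psmb10, the inducible trypsin-like subunit, was at 11.4 to 31.4 CPM in normoxia (median 28.2) and at 4.17 to 22.3 CPM in hyperoxia (median 9.98). The groups overlapped, and its log2 fold change of -0.97 ± 0.36 did not pass (adjusted p = 0.0662), nor did the value of -0.86 without replicate 1 (adjusted p = 0.0816), whereas DESeq2 called it at -0.96 (adjusted p = 0.0349). Psmb10 was at -1.24 within letters B to M and at -0.11 within letters O to S, neither past the threshold.

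The number of immunoproteasome genes that fell depended on single libraries. It was 1 with all libraries, 2 without hyperoxia replicate 1 (Psmb8 and Psmb9), 4 without hyperoxia replicate 2 (Psmb8, Psmb9, Psmb10 and Psme2) and 2 without normoxia replicate 6 (Psmb9 and Psmb10). The median of the 5 genes was -1.24 within letters B to M and -0.18 within letters O to S. No proteasome gene had a difference between the letter sets past the threshold (edgeR interaction test, adjusted over all genes), and none of the 12496 genes did, although 1158 genes had an unadjusted p under 0.05, Psmd9 alone among the 47 proteasome genes.

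Psme1 and Psme2 encode the subunits of PA28αβ, the interferon-inducible activator, and lie 5911 bases apart on chromosome 14. Psme1 was at 120 to 167 CPM in normoxia (median 134) and at 93.5 to 147 CPM in hyperoxia (median 124), with overlap and a log2 fold change of -0.20 ± 0.13 (adjusted p = 0.323), or -0.25 without hyperoxia replicate 1. Psme2 was at 29.1 to 69.7 CPM (median 48.8) and at 11.8 to 66.5 CPM (median 32.6), and its log2 fold change was -0.53 ± 0.31 (adjusted p = 0.246), or -0.37 without that library. On the opposite strand, 18 of the 48 genes overlap another gene, and nothing states that the counting used strand. Among the genes of this paragraph and of the ratios, Psmb7 overlaps Nek6 and Gm13586, Psmb8 overlaps Gm20496, Psmb9 overlaps Tap1, its partner gene in peptide loading, Psmb10 overlaps Gm16156, and Psme1 overlaps Emc9. Psmb8 and Psmb9 lie 9956 bases apart on chromosome 17.

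Each inducible catalytic subunit takes the place of a constitutive one, and the log2 ratio of the 2 within a library takes out the scaling of the library. The ratio of Psmb8 to Psmb5 was between -0.16 and 1.26 in normoxia and between -2.01 and -1.10 in hyperoxia, with means of 0.34 ± 0.49 and -1.41 ± 0.33 (SD). It was 3.35-fold lower in hyperoxia without overlap (exact two-sided permutation test, p = 5.8e-04, adjusted p = 8.7e-04 over the 3 ratios), and 3.38-fold lower without hyperoxia replicate 1. The ratio of Psmb9 to Psmb6 was between -2.43 and -1.11 in normoxia and between -7.34 and -3.08 in hyperoxia, again without overlap, and 6.08-fold lower (exact permutation p = 5.8e-04, adjusted p = 8.7e-04). The lowest ratios were those of hyperoxia replicates 1 and 3, at -7.34 and -5.62, and without replicate 1 the ratio was 4.05-fold lower (exact permutation p = 0.00126). The ratio of Psmb10 to Psmb7 was between -1.20 and 0.36 in normoxia and between -3.03 and -0.29 in hyperoxia. It was 2.48-fold lower (exact permutation p = 0.0117, adjusted p = 0.0117), and only hyperoxia replicate 1, at -0.29, was within the normoxic range. Without replicate 1 the groups were separate and the ratio was 3.02-fold lower (exact permutation p = 0.00253). The smallest p that the 1716 splits of 13 libraries allow is 5.8e-04.

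Within letters B to M the 3 differences on the log2 scale were -1.37, -3.48 and -1.15, in the order above, and within letters O to S they were -2.38, -1.84 and -1.05. With 2 and 3 libraries the smallest exact p is 0.10, so the second set cannot pass the threshold. A ratio here compares groups and is no measure of the stoichiometry of the complex, since the counts of different genes are not on a common scale.

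**Figure D4:**
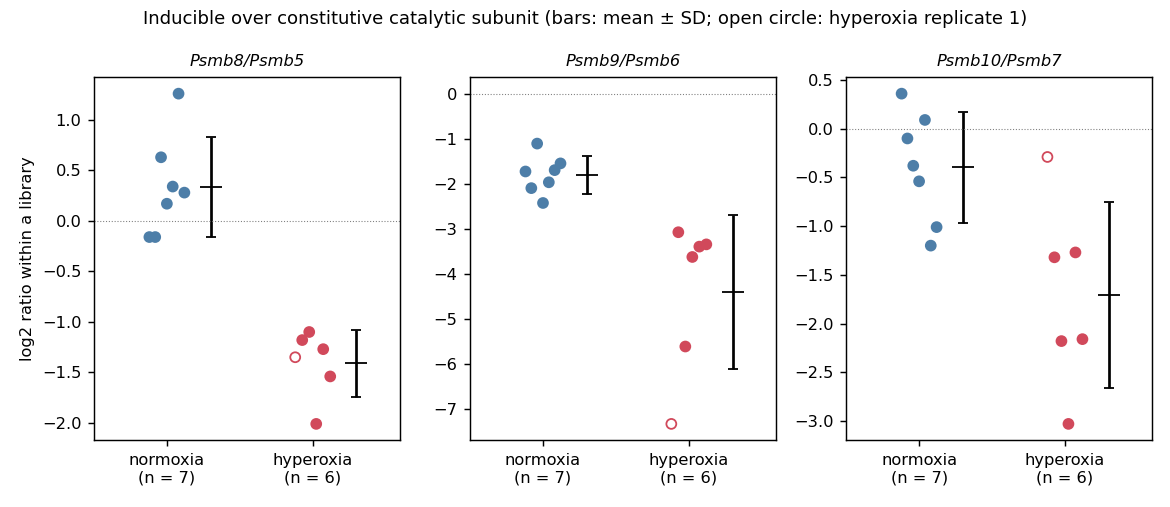
Points are the log2 ratio of an inducible to its constitutive catalytic subunit within each of the 7 normoxic and 6 hyperoxic libraries, bars are the mean ± SD, and the open circle is hyperoxia replicate 1. The groups are separate for Psmb8 over Psmb5 (-0.16 to 1.26 against -2.01 to -1.10) and Psmb9 over Psmb6, and for Psmb10 over Psmb7 replicate 1 at -0.29 lies within the normoxic range.

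Leukocytes are rich in immunoproteasome, and the markers of lymphocytes and of leukocytes as a whole moved in the same direction. The summed level of 4 pan-leukocyte markers was between 282 and 451 CPM in normoxia and between 147 and 219 CPM in hyperoxia, and 3 of the 4 fell (median log2 fold change -1.0), among them Ptprc (CD45; log2 fold change -0.98, adjusted p = 0.00691) and Cd53 (-1.02, adjusted p = 0.0266, a call lost without normoxia replicate 7 or hyperoxia replicate 5). B cell markers summed to between 164 and 225 CPM and to between 46.9 and 113 CPM, and 5 of 6 fell (median -1.90), with Cd79b at -2.28 and Cd79a at -1.80. In hyperoxia replicate 1 Cd79a was at 24.7 CPM, its highest hyperoxic value, and Cd79b at 1.07 CPM, its lowest. T and NK cell markers summed to between 37.0 and 64.3 CPM and to between 9.03 and 28.0 CPM, and 3 of the 4 tested fell (median -1.48), with Cd2 at -1.78 and Cd3d at -1.14. Cd3e, with 0 to 6 counts in a library, was among the 3 of 7 with too few counts to be tested. Without hyperoxia replicate 1, 3 of 4 pan-leukocyte, 6 of 6 B cell and 4 of 4 T and NK cell markers fell. Of all tested genes, 10.8% fell with all libraries and 13.9% without hyperoxia replicate 1. Macrophage and monocyte markers overlapped between the groups, at 494 to 592 and 548 to 794 CPM, with Mrc1 higher (0.72) and Ccr2 lower (-0.85) among 1 that rose and 2 that fell of 8, or 2 and 3 without that library. Neutrophil markers overlapped too, at 98.6 to 195 and 41.3 to 240 CPM, and none of the 4 tested passed or had an unadjusted p under 0.05 (edgeR). The part of these markers in the fall of Psmb9 was not tested.

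Markers of the other lung cells were mixed, where 11.8% of all tested genes rose and 10.8% fell. Lung epithelial markers summed to between 25644 and 74728 CPM in normoxia and to between 4141 and 16683 CPM in hyperoxia, and 3 of 7 fell, with Sftpc, the surfactant protein of type II cells, at -2.72, Scgb1a1 of club cells at -2.96 and Sftpa1 at -1.69. The other 4 did not pass, at -0.38 (Sftpb), -0.11 (Ager), 0.081 (Hopx) and 0.11 (Epcam), and the same 3 fell without hyperoxia replicate 1. All 7 of these markers of the labelled tissue were among the tested genes. Endothelial markers overlapped, at 2763 to 4885 and 1224 to 4799 CPM, with Tek lower (-0.94) and the other 4 not past the threshold, at -0.79 (Pecam1, which passed at -1.27 without hyperoxia replicate 5), -0.35 (Kdr), 0.18 (Cdh5) and 0.46 (Cldn5). Without hyperoxia replicate 1, Tek and Kdr (-0.38) fell and Cldn5 (0.70) rose. Fibroblast markers overlapped, at 1472 to 2170 and 2032 to 2675 CPM, and Pdgfra alone of the 4 tested rose, by 1.19, also without that library. The part of these cells in the rise of the core and cap was not tested.

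Among the other activators, Psme3, which encodes the nuclear activator PA28γ, had the largest increase of the 47 genes with all libraries, and Psmc6, at 1.16, the largest increase without hyperoxia replicate 1. Psme3 was at 13.1 to 25.2 CPM in normoxia (median 17.7) and at 32.1 to 55.8 CPM in hyperoxia (median 40.3), without overlap. It rose by 1.16 ± 0.19 (adjusted p = 4.1e-04), by 1.06 without hyperoxia replicate 1, by 1.40 within letters B to M and by 0.88 within letters O to S. Psme4, which encodes the nuclear activator PA200, was at 46.6 to 113 CPM (median 58.5) and at 82.7 to 130 CPM (median 97.2). The 2 normoxic libraries of letters O to S were its highest normoxic values, at 113 and 93.7 CPM. The log2 fold change was 0.56 ± 0.21 (adjusted p = 0.0712) with all libraries and 0.59 ± 0.22 (adjusted p = 0.0488) without hyperoxia replicate 1. With the letter set as a term Psme4 passed at 0.46 (adjusted p = 0.0273), and within letters B to M and O to S it was at 0.69 and 0.19 (adjusted p = 0.0532 and 0.411). Psmf1, which encodes the inhibitor PI31, was at 35.3 to 54.5 CPM (median 44.1) and at 47.9 to 96.5 CPM (median 59.5). The groups overlapped, the highest value was that of hyperoxia replicate 1, and the log2 fold change of 0.46 ± 0.18 did not pass (adjusted p = 0.0728). With the letter set as a term Psmf1 passed at 0.52 (adjusted p = 0.0334), so that all 3 of these genes were called higher in that fit, and within letters B to M and O to S it was at 0.70 and 0.34.

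None of the 4 Psmg chaperones, which pair α subunits at the first step of core assembly, passed the test, with log2 fold changes of -0.18 (Psmg1), -0.07 (Psmg2), -0.11 (Psmg3) and -0.025 (Psmg4) (edgeR). None had an unadjusted p under 0.05, and neither DESeq2 nor limma-voom called any. Their summed level was between 17.6 and 46.7 CPM in normoxia and between 2.14 and 55.9 CPM in hyperoxia. The lowest value was again that of hyperoxia replicate 1, with 0 counts for Psmg1, Psmg2 and Psmg3, and without it all 4 values were above 0, at 0.042 to 0.17. At 2.08 to 24.2 CPM in the other libraries, these were among the proteasome genes with the fewest reads. The absence of a call does not show that they were unchanged.

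Genes that work with the proteasome but carry other symbols were counted from lists. Of 9 tested partners, 6 rose and none fell, or 5 and none without hyperoxia replicate 1. Of all tested genes, 11.8% rose and 10.8% fell, or 14.8% and 13.9% without that library. The median log2 fold change of the partners was 0.55. Usp14 and Uchl5, the deubiquitinases that bind the cap reversibly, rose by 0.82 (adjusted p = 4.6e-04) and 0.68 (adjusted p = 0.00855), and Txnl1, a thioredoxin-like protein of the cap, rose by 0.95 (adjusted p = 2.2e-04). Usp14 was at 51.3 to 63.3 CPM in normoxia and 85.9 to 140 CPM in hyperoxia, and Txnl1 at 65.0 to 100 and 129 to 189 CPM, and neither overlapped. Pomp, the maturation factor of the core, rose by 0.54 (adjusted p = 0.0468), a call lost in 11 of the 13 fits that left out 1 library, with the lowest value, 0.34 (adjusted p = 0.0668), without hyperoxia replicate 1. The summed partners were at 1088 to 1246 CPM in normoxia and 1471 to 1729 CPM in hyperoxia.

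Of the 8 genes of the list on proteasome transcription, 4 rose and none fell, where 11.8% and 10.8% of all genes did. Their median was 0.50. Nfe2l1 itself was at 88.8 to 97.8 CPM in normoxia and at 85.1 to 120 CPM in hyperoxia (log2 fold change 0.07 ± 0.11, adjusted p = 0.702). Nfe2l2, the transcription factor of the antioxidant response, rose by 0.62 (adjusted p = 0.0236), and by 0.41 without hyperoxia replicate 1 (577 CPM), and Keap1, which restrains it, was at 0.48 and did not pass the test, with its highest value, 307 CPM, in replicate 1 and a log2 fold change of 0.21 without it. The protease Ddi2, which releases NFE2L1 from its membrane anchor, rose by 0.57 (adjusted p = 0.0271), a call lost without normoxia replicate 1, 3 or 5. Ufd1 (listed as Ufd1l) and Nploc4, the cofactors of the unfoldase VCP, rose by 0.86 (adjusted p = 2.7e-04) and 0.52 (adjusted p = 0.0244), the latter call lost without normoxia replicate 4 or 7 or hyperoxia replicate 4.

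In the list of ubiquitin and shuttle genes, 1 of 11 rose and 1 fell, where 11.8% and 10.8% of all genes did. Without hyperoxia replicate 1 the numbers were 2 and 1, since Ubqln1 went from 0.33 (adjusted p = 0.295) to 0.49 (adjusted p = 0.00807). Rad23b, a shuttle that carries ubiquitinated proteins to the cap, was at 163 to 216 CPM in normoxia and at 292 to 517 CPM in hyperoxia and rose by 1.08 (adjusted p = 2.0e-04), whereas Ubqln2, another shuttle, was at 27.6 to 43.2 CPM and at 5.36 to 25.4 CPM and fell by 0.82 (adjusted p = 0.0294), a call lost without normoxia replicate 4 or 6 or hyperoxia replicate 5. Both were without overlap. In the list of MHC class I and interferon-γ genes, which holds the regulators of the inducible subunits, none of 12 rose and 1 fell. The same counts held without hyperoxia replicate 1. The median was -0.17, and 0.031 without that library. Irf1 was at -0.69 (adjusted p = 0.159), Nlrc5, the class I transactivator, at -0.28 (adjusted p = 0.618) and Tap1, which shares its locus with Psmb9, at 0.29 (adjusted p = 0.657).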

How the data were processed

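The 13 libraries were prepared with a 3′ mRNA kit (Lexogen Quant-seq). Per the study's methods, BioJupies ran kallisto on the reads. The authors deposited counts per gene symbol as whole numbers, and a deposited table of log10(CPM + 1) could be recomputed from those counts to within 4.4e-16. The submitters' processing notes name the build mm10 and limma 3.54.2. Neither strand nor annotation is given in the sources used here.

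The counts were tested with edgeR 4.0.16 (TMM, filterByExpr, quasi-likelihood test, Benjamini-Hochberg adjustment over 12496 genes, threshold 0.05) in R 4.3.3, with 7 normoxic and 6 hyperoxic libraries and no covariate. Standard errors were derived from the fold change and the F statistic. The ratios used log2 CPM with a prior count of 2 and an exact permutation test over 1716 splits. CPM values are TMM-scaled. Totals per library ran from 1607111 to 4540288, and floors cover counting error only. Alternatives were DESeq2 1.42.0, limma-voom (limma 3.58.1), limma-trend on the deposited log10 values turned into log2, library size alone, other filters, a block for the replicate number, a term for the letter set of the library names, a log2 fold change beyond 1.5, and each library left out. The fits were also run on simulated counts with a common dispersion and no outlying library, a setting that does not cover hyperoxia replicate 1. Libraries of a group differed by more than sampling noise in all 36 pairs (chi-square per gene at least 3.90).

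The genes were taken by symbol. The members and the gene lists were chosen with earlier results of these data known. Every proteasome gene is named. Full values are given for the catalytic subunits, their inducible forms, Psme1 to Psme4 and Psmf1, and for the 3 genes of the core and the cap with the smallest adjusted p. Of the pathway and marker lists, genes fixed by name and the 2 or 3 with the smallest adjusted p were named, and Ddi2, Keap1, Ubqln1, Sftpb, Ager, Hopx, Epcam, Kdr, Cdh5 and Cldn5 were named after their values were seen. The values of 2 listed genes are not reported here. Of 10 listed partners, Paaf1 was not found in the table by symbol or synonym. Gene positions are from GENCODE vM21 and upstream sequences from RefSeq, both of the build GRCm38. Upstream windows of 250 bases were searched, and 10 bases were shown on each side of a match inside an exon where the window allowed.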

Additional observations from a re-analysis of the deposited data

Results flagged for a closer look

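In 110 groups of values (each tested proteasome gene, the sums and the ratios in normoxia and in hyperoxia), 14 had 1 library far from the others by Dixon's ratio, the distance from the next library as a share of the whole range, where chance flags about 1 in 20 groups, or 5.50 of 110. Of these, 8 were hyperoxia replicate 1, each time as the highest library: Psmb6 (0.883), Psmd7 (0.874), Psmc3 (0.757), Psmc1 (0.747), Psma4 (0.661), Psmb1 (0.660), Psmd9 (0.634) and Psmd10 (0.634). None of its low values was flagged on CPM, although it was below every other library in 19 of the 47 genes. In hyperoxia replicate 3 the highest values of Psma3 (0.786), Psmd1 (0.772) and Psmd12 (0.741) stood apart from the other hyperoxic libraries. Among the normoxic libraries, replicate 5 was highest for Psmb4 (0.571) and replicate 3 for Psmb9 (0.631) and Psmc5 (0.604). Psma3, Psma4, Psmb4, Psmb6, Psmb9, Psmc1, Psmc3, Psmd7 and Psmd12 passed the test also when any 1 library was left out, whereas Psmd1 did not.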

How the results depend on the processing

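The stricter filter of 10 counts in every library left 34 of the 47 genes, without Psma5, Psmb2, Psmb3, Psmb5, Psmb8, Psmb9, Psmc4, Psmd3, Psmd13 and Psmg1 to Psmg4, of which 10 had under 10 counts in hyperoxia replicate 1 alone, and Psmb10 fell under this filter (-1.02, adjusted p = 0.0457). Depth limits Psmd13, Psmg1 and Psmg3, with under 10 counts in other libraries too. Of the 15 called proteasome genes, 14 were called under each of the 13 fits that left out a library, with Psmd1 as the exception, and 15 with DESeq2, limma-voom and the letter set as a term, 14 with no filter, 13 with library size alone, with limma on the log CPM and with the stricter filter, and 9 within each letter set. The median over all genes shifted to -0.10 with library size alone and to -0.16 with limma on the log CPM, from -0.03, and the share of higher among all calls was 52.3% with edgeR, 42.7% with library size alone, 38.8% with limma on the log CPM and 63.2% within letters B to M. The median of the 20S core was 0.40 with edgeR, 0.20 with limma-voom and 0.10 with limma on the log CPM, and that of the 19S cap 0.34 with the last. The cause was not tested for any of these shifts.

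Proteasome genes higher in hyperoxia numbered 9 within letters B to M and 0 at a log2 fold change beyond 1.5, and genes lower numbered 3 with DESeq2 and limma on the log CPM, 2 with library size alone, limma-voom and within letters O to S, 0 within letters B to M, and 1 to 4 when 1 library was left out. Of all genes, 732 were higher and 427 lower within letters B to M, and 194 and 294 beyond 1.5. The pathway lists held 1 to 3 lower genes when 1 library was left out, and the marker lists had 2 to 4 higher genes. The immunoproteasome median was -0.18 within letters O to S. The log2 difference of Psmb8/Psmb5 was -2.38 and that of Psmb9/Psmb6 -1.84 within letters O to S, where p could not go below 0.10, and Psmb10/Psmb7 missed the threshold at -1.15 within letters B to M and -1.05 within O to S.

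The replicate numbers did not pair the libraries, since the correlation of deviations was between -0.33 and 0.27 over 6 pairs and over 0.1 in 1 pair. With the replicate number as a replicate block, 718 genes were higher and 626 lower, and 6 proteasome genes were higher and 0 lower, with 5 of the 15 calls kept.

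Values that changed sign all belonged to genes that passed no test with all libraries. They were -0.023 for Psma6, -0.77 for Psmb2, -0.49 for Psmb3, -0.11 for Psmb5 and -0.31 for Psmd3 within letters B to M, and -0.047 for Psma7, -0.48 for Psmb11, -0.035 for Psmc2, -0.43 for Psmd9, 0.48 for Psmg1, 0.62 for Psmg2, 0.83 for Psmg3 and 0.59 for Psmg4 within letters O to S. Psmb2 was at -0.00065 with DESeq2, -0.029 with library size alone, -0.28 with limma-voom, -0.51 with limma on the log CPM, -0.28 with the replicate block and -0.054 with the letter set. Psmb3 was at -0.25 with limma-voom, -0.46 with limma on the log CPM, -0.25 with the replicate block and -0.018 with the letter set. Psmb5 was at -0.032 and Psmb11 at -0.047 with limma on the log CPM, and Psmb11 at -0.035 with library size alone and -0.019 with the stricter filter. Psmd3 was at -0.077 with limma-voom, -0.31 with limma on the log CPM and -0.11 with the replicate block. Psmd9 was at -0.06 with library size alone, -0.077 with limma-voom, -0.11 with limma on the log CPM, -0.057 with the stricter filter and -0.016 with the replicate block. Psmg4 was at 0.0038 with no filter and 0.081 with the letter set, and Nfe2l1 at -0.0058 with library size alone. Leaving out 1 library gave ranges that crossed 0 for Psmb2 (-0.21 to 0.25), Psmb3 (-0.091 to 0.32), Psmb11 (-0.11 to 0.19), Psmd3 (-0.022 to 0.34), Psmd9 (-0.19 to 0.15), Psmd13 (-0.024 to 0.55), Psmg1 (-0.29 to 0.042), Psmg2 (-0.26 to 0.17), Psmg3 (-0.27 to 0.12), Psmg4 (-0.32 to 0.17), Tap1 (-0.17 to 0.51), Ager (-0.20 to 0.026) and Hopx (-0.14 to 0.25). Hopx was at -0.00058 with library size alone, and within letters O to S Sftpb, Ager and Hopx were at 0.76, 0.42 and -0.12.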
